A study of Mus musculus with 24 samples.

Results

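The aryl hydrocarbon receptor battery was examined in mammary tumors induced by 7,12-dimethylbenz[a]anthracene (DMBA), a polycyclic hydrocarbon that is itself a ligand of the receptor. The battery was taken as 8 genes, Ahr, Arnt, Ahrr, Tiparp, Cyp1a1, Cyp1a2, Cyp1b1 and Nqo1, and its probes were all non-control probes that carry one of these names. These were 13 of the 39429 probes on the array, 6 of the 8 genes passed a filter on low signal, and the tests ran over 20934 genes. Tumors came from female BALB/c mice given DMBA by oral gavage around puberty, so every group had received the carcinogen and none was an untreated control. The mice ate a diet rich in animal-derived saturated fat (HFD) or a low-fat diet (LFD) throughout, or changed as adults from HFD to LFD (HFD-LFD) or from LFD to HFD (LFD-HFD). Tumors of the HFD and HFD-LFD groups were labeled early when they arose before any tumor of the LFD-HFD group, and late otherwise. There were 5 LFD Late, 6 HFD Late, 4 LFD-HFD Late, 3 HFD-LFD Late, 3 HFD Early and 3 HFD-LFD Early tumors, each on its own 2-color array against a common reference RNA pooled from mouse cell lines. The labels do not say whether tumors came from separate mice, so p-values measure only the spread between these samples.

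AHR is a cytosolic transcription factor that is held in a chaperone complex until a planar aromatic ligand binds it. It then enters the nucleus, pairs with ARNT, and binds DNA at a short core motif near its target genes, of which Cyp1a1, Cyp1a2, Cyp1b1, Nqo1, Ahrr and Tiparp are among the best known. The cytochrome P450 enzymes of this set oxidize polycyclic hydrocarbons, and CYP1B1 is the one known for turning DMBA into its DNA-binding form. AHRR and TIPARP are induced by the receptor and in turn restrain it.

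Promoters are shown for Cyp1a1, Ahrr and Tiparp, which were at their highest in the same tumor, and for Cyp1b1, the member with the largest early-to-late difference. RefSeq promoter sequences (GRCm38.p6, 250 bases before to 50 after the start) matched 7 of the 8 genes, all but Ahr. The windows lie at chr9:57697363-57697662 on the plus strand for Cyp1a1, chr13:74292282-74292581 on the minus strand for Ahrr, chr3:65528197-65528496 on the plus strand for Tiparp and chr17:79715012-79715311 on the minus strand for Cyp1b1. Each is written 5' to 3' along its gene, with the core motif GCGTG, or CACGC where the core lies on the other strand, in capitals.
Cyp1a1: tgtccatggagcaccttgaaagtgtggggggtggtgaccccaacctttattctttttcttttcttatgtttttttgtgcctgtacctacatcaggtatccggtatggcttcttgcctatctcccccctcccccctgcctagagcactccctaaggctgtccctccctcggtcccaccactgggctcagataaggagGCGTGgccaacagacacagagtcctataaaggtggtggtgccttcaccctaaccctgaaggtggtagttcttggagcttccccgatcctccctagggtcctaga
Ahrr: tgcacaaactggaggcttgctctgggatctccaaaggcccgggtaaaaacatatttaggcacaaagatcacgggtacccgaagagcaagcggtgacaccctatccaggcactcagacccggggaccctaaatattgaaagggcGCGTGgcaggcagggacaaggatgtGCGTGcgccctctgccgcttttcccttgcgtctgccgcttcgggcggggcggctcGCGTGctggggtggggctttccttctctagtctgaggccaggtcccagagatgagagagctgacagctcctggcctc
Tiparp: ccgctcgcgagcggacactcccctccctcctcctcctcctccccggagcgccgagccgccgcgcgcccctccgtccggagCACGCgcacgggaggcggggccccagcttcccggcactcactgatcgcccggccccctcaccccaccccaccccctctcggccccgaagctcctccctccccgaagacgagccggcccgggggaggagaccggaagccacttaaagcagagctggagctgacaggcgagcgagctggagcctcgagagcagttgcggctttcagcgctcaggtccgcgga
Cyp1b1: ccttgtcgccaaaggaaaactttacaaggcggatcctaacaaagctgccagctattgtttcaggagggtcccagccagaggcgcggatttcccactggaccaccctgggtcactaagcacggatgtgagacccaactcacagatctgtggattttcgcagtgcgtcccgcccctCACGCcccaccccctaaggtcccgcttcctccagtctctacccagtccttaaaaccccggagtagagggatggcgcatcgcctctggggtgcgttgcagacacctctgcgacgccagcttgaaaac
The Ahrr window held 3 cores, with middle bases 105, 80 and 25 before the start, and the one at 25 was also the only match among the 7 windows to the longer motif TNGCGTG, which contains the core. Cyp1a1 held 1 core at 52, Cyp1b1 1 at 74, Tiparp 1 at 168 and Arnt 1 at 27, while the Cyp1a2 and Nqo1 windows held 0. Of all 32851 RefSeq mouse promoters of this length, 32.4% held at least 1 core on either strand, 3.91% held at least 3 and 5.07% held the longer motif. A match is a description of the letters, and these arrays did not measure binding.

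The array labels place tumor RNA in the cyanine 5 dye, whereas the study's methods place the reference there. The direction was settled from the signals. The reference was common to all arrays, and over 16286 probes the spread of a probe across arrays (median SD) came to 0.473 log2 units for cyanine 5 but 0.191 for cyanine 3, and cyanine 5 lay further from the median array on 24 of 24 arrays. The 2 Y chromosome probes with enough signal were brighter in cyanine 3 by 2.31 to 5.05 log2 units, in RNA of female mice. All values below are log2 ratios of cyanine 5 over cyanine 3, tumor over reference, and a value above 0 means more RNA in the tumor than in the reference pool. On each array, 65.3% to 89.1% of tumor-channel probes exceeded background clearly, by the scanner software's own criterion (called well above background here). On 7 of the 24 arrays, all on 2 of the 7 slides, a band of rows had lost cyanine 5 signal, and the affected spots were set as missing. This left 20 tumors for Ahr, Cyp1b1 and Cyp1a1, 21 for Arnt and Tiparp, and 24 for Ahrr, Nqo1 and Cyp1a2. Fewer cells of a type and less RNA per cell cannot be told apart in such bulk samples.

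On mm9, the build of the array's annotation, the probes used lie at chr12:36182724-36182783 for Ahr, chr3:95301081-95301140 for Arnt, chr13:74348566-74348612 for Ahrr and chr3:65358749-65358808 for Tiparp. Those of the enzymes lie at chr9:57551535-57551594 for Cyp1a1, chr9:57528060-57528119 for Cyp1a2, chr17:80106547-80106606 for Cyp1b1 and chr8:109912440-109912499 for Nqo1. Exon annotation of that build was not used here. Different probes bind with different strength, so levels are compared between tumors for the same probe and not between genes.

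Of the 6 genes tested, Ahr was the one whose level differed between early and late tumors, and it was higher in early tumors. In 3675 of the 20934 genes, or 17.6%, early and late tumors differed (6.73% higher and 10.8% lower in early tumors), against 1 of 6 members. Cyp1b1 had a difference of the same size with a wider error that did not pass the test. The other 4 members lay lower in early tumors on average, none past the test, and Arnt, Nqo1 and Tiparp turned higher when arrays were centred on their median, which moved the median difference of all genes from -0.059 to 0.21. Comparisons used limma with Benjamini-Hochberg adjustment over all 20934 genes and a threshold of 0.05.

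**Figure D1:**
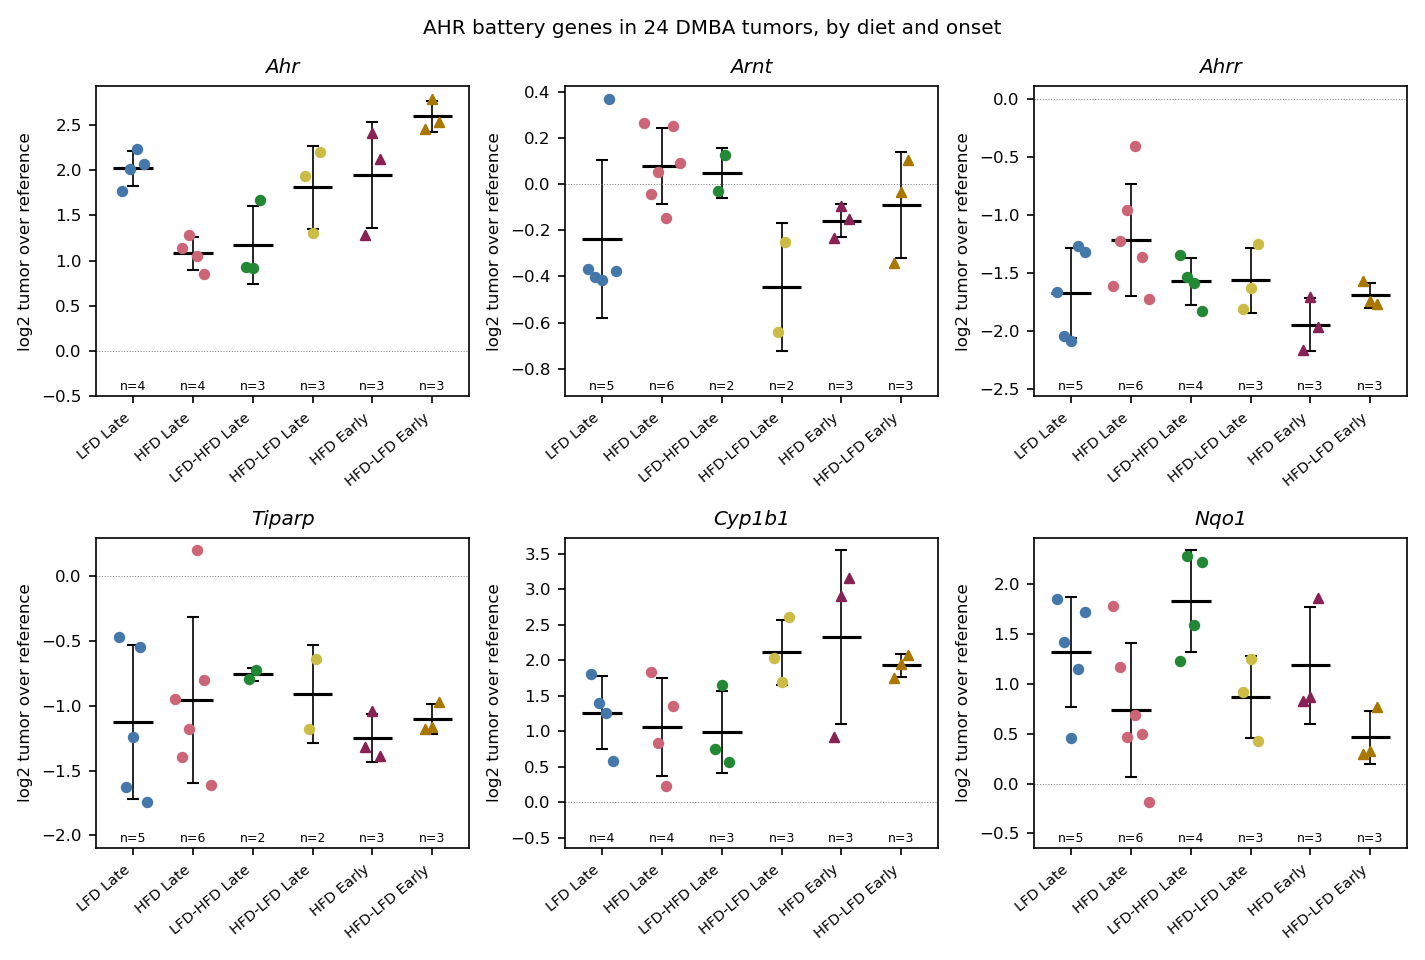
Log2 ratio of tumor over reference (vertical axis) for the 6 tested genes in each of the 6 groups; circles are late tumors, triangles early tumors, bars the group mean ± SD, with the number of tumors measured under each group. HFD-LFD Early tumors lie highest for Ahr, and 1 HFD Late tumor lies above all others for Ahrr and Tiparp.

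Ahr encodes the receptor itself. In HFD Early tumors its log2 ratios were 1.29, 2.42 and 2.13, and in HFD-LFD Early tumors 2.46, 2.80 and 2.54. Late tumors gave 1.77, 2.02, 2.24 and 2.07 on LFD, 1.14, 1.28, 1.04 and 0.85 on HFD, 0.93, 0.92 and 1.67 on LFD-HFD, and 1.94, 1.30 and 2.20 on HFD-LFD. All 20 tumors thus lay above the reference, 4 of the 6 early tumors lay above every late tumor, and 6 of the 14 late tumors lay below every early one. The share of all genes that part early from late tumors to this degree was not counted. The lowest early tumor, HFD Early 1, lay among the late ones. The mean was 2.27 ± 0.53 (SD, n = 6) in early tumors and 1.53 ± 0.51 (n = 14) in late tumors, a difference of 0.75 (SE 0.24, 95% interval 0.24 to 1.25, 1.68-fold, adjusted p = 0.0379). By group mean the order was HFD-LFD Early at 2.60, LFD Late at 2.02, HFD Early at 1.95, HFD-LFD Late at 1.81, LFD-HFD Late at 1.17 and HFD Late at 1.08. The step from HFD-LFD Early to LFD Late was the one between neighbors without overlap, and LFD Late, HFD Early and HFD-LFD Late differed by less than their spread, as did the lowest pair.

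Slide and scan session bear on the Ahr difference. The 3 HFD Early tumors shared a slide of their own, and the 3 HFD-LFD Early tumors shared theirs with 1 LFD-HFD Late tumor. Within the first scan session the Ahr difference was 0.40 (adjusted p = 0.468), and within the second it was 1.22 (adjusted p = 0.0373), and the remaining session held no early tumor. It was 0.73 with session as a block (adjusted p = 0.0515), 0.91 with slide as a random block (adjusted p = 0.0495) and 1.68 with slide as a fixed block (adjusted p = 0.109). With the dimmed rows kept in the data it was 1.82 (adjusted p = 0.167). With 1 array left out at a time, early tumors stayed higher in 24 of 24 fits, by 0.64 to 0.94, and 13 fits passed the test. The fits that missed it left out HFD Early 2 or 3, HFD-LFD Early 1, 2 or 3, HFD Late 1, 2 or 3, HFD-LFD Late 2, or LFD-HFD Late 2 or 3, and gave 0.64 to 0.78 with adjusted p of 0.0507 to 0.0880. The second Ahr probe, at chr12:36188523-36188582 of mm9, had too little signal in the reference channel to be tested, and its ratio was 0.27 higher in early tumors, with a correlation of 0.58 to the first probe over 20 arrays.

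Luminal and proliferation markers differed with onset, beside 10.8% of all genes lower and 6.73% higher in early tumors. Of 4 measured luminal markers 3 fell in early tumors, and their mean log2 ratio ran from -0.30 to 2.30 with a median of -0.027 in the 6 early tumors, and from -1.02 to 4.20 with a median of 3.31 in the 18 late ones. Of 5 proliferation markers 4 rose, with medians of 0.27 in early and -0.50 in late tumors. None of 4 general epithelial, 4 basal or 7 squamous markers passed the test. The squamous median was -0.84 in early and -3.34 in late tumors. Of 6 fibroblast markers 1 fell in early tumors, Dcn at -2.54 (adjusted p = 0.00303). Of 5 macrophage markers 1 fell, Cd14 at -1.36 (adjusted p = 0.0146). The 3 T cell markers lay at -0.98 to -0.88 and none passed (adjusted p of 0.0525 to 0.0772). The part of these shifts in the Ahr difference was not tested. HFD Early 1, the early tumor with the lowest Ahr and Cyp1b1, also had the highest luminal mean of the early tumors at 2.30 and the lowest squamous mean at -3.32. It was picked after its values had been seen, and HFD Late 4 went the other way. That tumor had the highest squamous mean of all at 2.41, a luminal mean of -0.24 and the lowest Ahr, at 0.85.

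Arnt, the partner of the activated receptor, stayed close to the reference in every tumor. Its log2 ratio ran from -0.34 to 0.11 with a median of -0.12 in early tumors, and from -0.64 to 0.37 with a median of -0.043 in late tumors. Early values lay inside the late range. Early minus late was -0.023 (SE 0.13, 95% interval -0.30 to 0.25, adjusted p = 0.922), and the sign turned under 9 of 16 other settings, among them median centring, where it was 0.37. A second Arnt probe passed the filter, but over 21 arrays its correlation with the first was -0.50, so the probes did not rank the tumors alike. Its own early minus late difference was -0.063. Levels of Arnt between single tumors are therefore uncertain, and another Arnt probe, with signal well above background on 5 arrays, was not tested.

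Ahrr, which competes with AHR for ARNT, was below the reference in all 24 tumors. HFD Early tumors had -2.16, -1.71 and -1.96, and HFD-LFD Early tumors -1.57, -1.75 and -1.77. In HFD Late tumors it ran from -1.73 to -0.41 with a median of -1.30. LFD Late tumors had -1.66, -2.05, -2.09, -1.27 and -1.32, and the other late groups lay from -1.83 to -1.26. All 6 early tumors lay below the late median of -1.56, and 5 of them lay within the late range. Early minus late was -0.34 (SE 0.17, 95% interval -0.69 to 0.012, adjusted p = 0.162). A second Ahrr probe was not well above background on any array.

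Tiparp, an ADP-ribosyltransferase induced by AHR that shuts the receptor down, also lay below the reference in 20 of the 21 tumors measured. Early tumors lay in a narrow band from -1.38 to -0.97 with a median of -1.17. Late tumors ran from -1.74 to 0.20 with a median of -0.95, on both sides of the early band. The difference was -0.20 (SE 0.21, 95% interval -0.64 to 0.25, adjusted p = 0.542). A second Tiparp probe, correlated with the first at 0.92 over 21 arrays, gave -0.28.

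Cyp1a1, the classic readout of AHR activation, was not well above background in 19 of the 20 tumors with a usable spot, where the background-subtracted tumor signal was -16.2 to 45.7 scanner units. The tumor HFD Late 4 was the exception, with a signal of 674 and no outlier flag on the spot, while the lowest signal called well above background on its array was 18.1. On that array 29.7% of probes were brighter in the tumor channel. The reference signal for Cyp1a1 was 3.99 there and at most 27.9 elsewhere. The tumor signal was over 10 on 2 of 24 arrays, so the filter on low signal removed the probe and no group comparison was made. Cyp1a2, an enzyme mainly of liver, was well above background in 4 of 24 tumors, HFD Late 2, 3 and 6 and HFD-LFD Early 3, with signals of 75.1, 155, 202 and 58.1. The spot of HFD Late 2 carried an outlier flag. On those 4 arrays the reference signal of Cyp1a2 was high as well, 35.0 to 104 against 6.67 to 22.5 on the others, and the other 20 tumors had -3.06 to 22.0.

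HFD Late 4 was the tumor in which Cyp1a1, Ahrr, Tiparp and several other reported AHR targets were at their highest. This tumor was singled out after its values had been seen, and the comparison with the others is a description without a test. Its Ahrr ratio was -0.41 against at most -0.96 in the other 23 tumors, and its Tiparp ratio 0.20 against at most -0.47 in the other 20. Ahr itself was lowest here, at 0.85 against 0.92 to 2.80 in the other 19, and Cyp1b1 at 1.36 and Nqo1 at 0.68 ranked 13 of 20 and 17 of 24. Among 15 other reported AHR targets, 7 were highest in this tumor, against 11.5% of all tested genes. They were Aldh3a1 at 2.38, Cyp2s1 at -0.54, Ereg at 4.91, Ptgs2 at 3.77, Scin at 1.43, Serpinb2 at 4.90 and Ugt1a6b at 0.11. The mean over the 15 was 0.94 in this tumor and -0.74 to 0.082 in the others, some of which had as few as 9 of the genes measured. Ereg, Serpinb2 and Ptgs2 had the largest values in it and weigh most in its mean. Of the same list, Selenbp1 at -3.78 and Slc46a3 at -1.98 ranked 20 and 19 of 24.

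**Figure D2:**
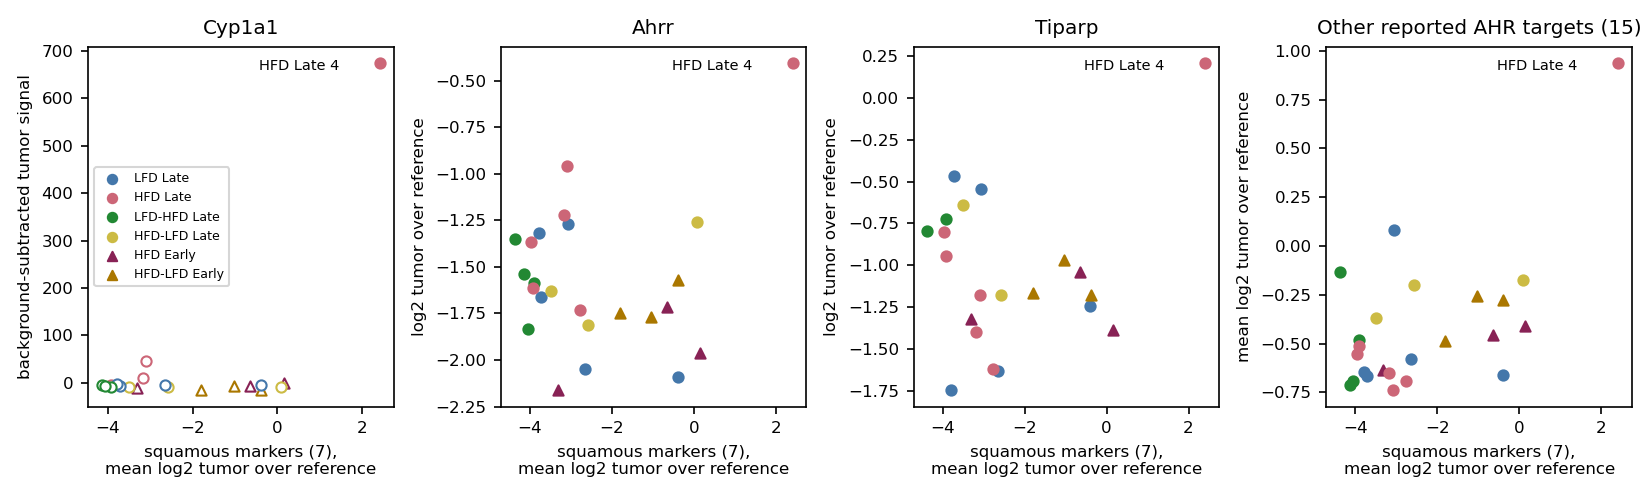
Each of the 4 panels has the mean log2 ratio of 7 squamous markers on its horizontal axis. The vertical axes give Cyp1a1 tumor signal after background subtraction and the Ahrr and Tiparp log2 ratios. The last gives the mean log2 ratio of up to 15 other reported AHR targets. Points are tumors colored by group, triangles early, open symbols not well above background. HFD Late 4 lies alone at the upper right of every panel, but the single genes shown are those that were highest in it. Cyp1b1 and Nqo1, for which it ranked 13 of 20 and 17 of 24, are not shown.

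The same tumor had the profile of keratinizing squamous epithelium. The mean log2 ratio of 7 squamous markers was 2.41 in HFD Late 4 and at most 0.15 in the other 23 tumors, with the suprabasal keratins Krt1 at 2.15 and Krt10 at 2.81 and the cornified envelope proteins Lor at 1.53 and Ivl at 2.28. The simple-epithelial keratins Krt8 at -4.75 and Krt18 at -4.11 and the luminal regulator Foxa1 at -3.09 were lower than in any other tumor measured. Basal markers, with a mean of 1.79, and fibroblast markers, with a mean of 0.25, were highest in it as well. Several of the targets named above, such as Serpinb2 and Ereg, are also known from keratinizing epithelium, and the parts of cell type and receptor activity were not tested. The tumors next in squamous mean were HFD Early 3 at 0.15 and HFD-LFD Late 3 at 0.081. Their Ahrr ratios were -1.96 and -1.26, the means of their other AHR targets -0.41 over 15 genes and -0.17 over the 9 measured, and Cyp1a1 was not well above background in either.

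Cyp1b1, the P450 that activates DMBA, was above the reference in all 20 tumors measured. HFD Early tumors had 0.92, 2.90 and 3.16, and HFD-LFD Early tumors 1.75, 1.95 and 2.08. Late tumors had 1.81, 1.40, 1.25 and 0.58 on LFD, 1.84, 0.83, 0.23 and 1.36 on HFD, 0.75, 1.65 and 0.57 on LFD-HFD, and 2.02, 1.70 and 2.61 on HFD-LFD. The highest pair of all were HFD Early 2 and 3, and HFD Early 1 lay among the late tumors. HFD-LFD tumors were of similar level at both onsets. The mean was 2.13 ± 0.81 (SD, n = 6) in early and 1.33 ± 0.67 (n = 14) in late tumors, a difference of 0.80 (SE 0.33, 95% interval 0.12 to 1.48, 1.74-fold, adjusted p = 0.0926). It was 1.17 within the first scan session (adjusted p = 0.136) and 0.14 within the second (adjusted p = 0.572). Median centring gave 1.34 (adjusted p = 0.0118) and array weights 0.80 (adjusted p = 0.0200). Without HFD Early 1 it was 1.04 (adjusted p = 0.0388), and without HFD-LFD Late 3 it was 0.90 (adjusted p = 0.0480).

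**Figure D3:**
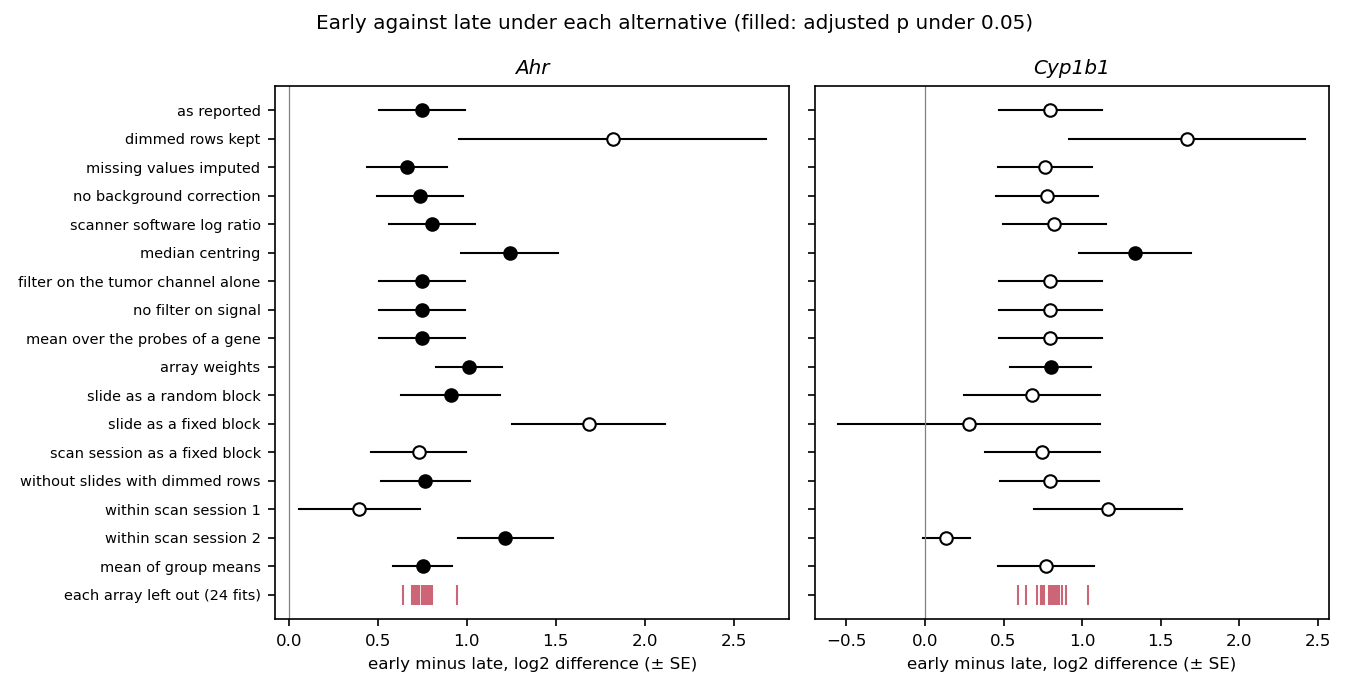
Early minus late log2 difference ± SE (horizontal axis) for Ahr and Cyp1b1 as reported and under each other setting (vertical axis), with filled points for an adjusted p under 0.05; the lowest line of ticks gives the 24 fits that each leave out 1 array. Ahr runs from 0.40 to 1.82 and Cyp1b1 from 0.14 to 1.67, all above 0.

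Nqo1, a quinone reductase controlled by both AHR and NRF2, varied widely within groups. Early tumors had 0.83, 0.86 and 1.86 on HFD and 0.29, 0.33 and 0.77 on HFD-LFD. LFD-HFD Late tumors were the highest group, with 1.23, 2.28, 1.59 and 2.22, followed by LFD Late with 1.85, 1.42, 0.45, 1.15 and 1.71. HFD Late tumors ran from -0.19 to 1.77 with a median of 0.59, and HFD-LFD Late tumors had 0.92, 1.25 and 0.43. No neighboring groups in this order were apart by more than their spread. Early minus late was -0.34 (SE 0.30, 95% interval -0.95 to 0.27, adjusted p = 0.438), and median centring turned it to 0.045. Over 16 other settings it ran from -1.12 to 0.045, and under 1 of them it passed the test as lower in early tumors (adjusted p = 0.0216).

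Within the HFD diet, early tumors had more Ahr and less Ahrr than late ones. Both changes passed the test, 2 of 6 members against 13% of all genes (5.72% higher, 7.23% lower). Ahr was higher by 0.87 (SE 0.26, 1.83-fold, adjusted p = 0.0390) and Ahrr lower, at -0.73 (SE 0.24, 1.66-fold, adjusted p = 0.0491). The Ahr groups, 1.29 to 2.42 and 0.85 to 1.28, did not overlap, and the Ahrr groups overlapped only through HFD Late 6 at -1.73, under HFD Early 2 at -1.71. For Ahr these were 3 early and 4 late tumors, and the share of all genes that separate so few tumors was not counted. Cyp1b1 was 1.27 higher (SE 0.48, adjusted p = 0.0894), Nqo1 0.45 higher (adjusted p = 0.439), and Tiparp at -0.29 (adjusted p = 0.592) and Arnt at -0.24 (adjusted p = 0.369) were turned to 0.20 and 0.24 by median centring. Without HFD Early 1, the Cyp1b1 difference was 1.97 (adjusted p = 0.0158). Without HFD Late 4, the squamous tumor, Ahr was 0.79 (adjusted p = 0.0807) and Ahrr -0.57 (adjusted p = 0.0790). Ahr also missed the test without HFD Early 2 or 3 or HFD Late 1, 2 or 3, at 0.63 to 0.94 (adjusted p from 0.0501 to 0.191). No slide held both HFD Early and HFD Late tumors, so slide and onset cannot be told apart within this diet, and with slide as a random block Ahr had an adjusted p of 0.153 and Ahrr of 0.211. Ahr passed under 8 of 12 other settings, and missed the test with dimmed rows kept (2.33, adjusted p = 0.287), with imputation (0.59, adjusted p = 0.150) and with the scanner software's ratio (0.83, adjusted p = 0.0615).

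The Ahrr call within HFD was close to the threshold and held under 5 of 12 other settings, where it ran from -0.999 to -0.61 (adjusted p up to 0.211), and in 7 of 24 fits with 1 array left out. Its value was -0.62 without HFD Early 1 (adjusted p = 0.177), -0.85 without HFD Early 2 (0.0795) and -0.72 without HFD Early 3 (0.131). It was -0.73 without HFD Late 2 (adjusted p = 0.0713), -0.68 without HFD Late 3 (0.0868) and -0.76 without HFD Late 5 (0.0565). The difference stayed at -0.73 but missed the threshold, with adjusted p of 0.0530 to 0.0602, without LFD Late 1, any of LFD-HFD Late 1 to 4, HFD-LFD Late 1 or 2, or any of HFD-LFD Early 1 to 3.

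**Figure D4:**
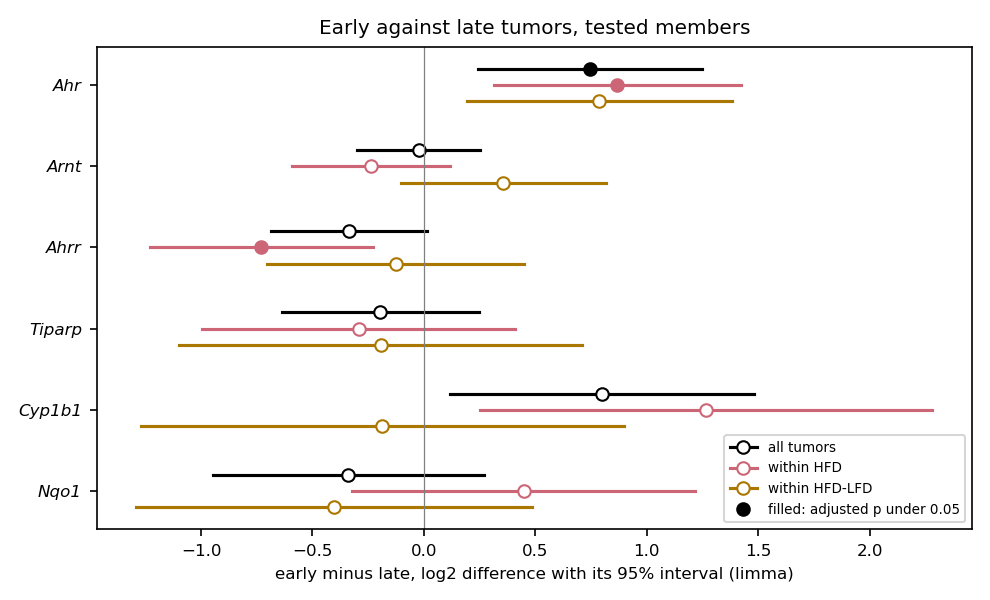
Early minus late log2 difference with its 95% interval (horizontal axis) for the 6 tested genes (vertical axis), over all tumors, within HFD and within HFD-LFD; filled points passed an adjusted p of 0.05. Ahr lies to the right of 0 in all 3 comparisons, at 0.75, 0.87 and 0.79, while Cyp1b1 lies at 1.27 within HFD and at -0.19 within HFD-LFD. Within HFD and within HFD-LFD, no slide held both early and late tumors.

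Within HFD-LFD no member passed the test, against 0.831% of all genes. Ahr was 0.79 higher in early tumors (SE 0.28, 95% interval 0.19 to 1.38, adjusted p = 0.192), with every early tumor at 2.46 or above and every late tumor at 2.20 or below. How many of all genes part so few tumors in this way was not counted. Cyp1b1 was at -0.19 (95% interval -1.27 to 0.90, adjusted p = 0.891), Arnt at 0.36 (adjusted p = 0.453), Nqo1 at -0.40 (adjusted p = 0.676), Ahrr at -0.13 (adjusted p = 0.856) and Tiparp at -0.19 (adjusted p = 0.858). The onset changes on the 2 diets were also compared with each other, and no gene of the 20934 passed (0%), although 1691 had an unadjusted p under 0.05. The widest gap was that of Cyp1b1, 1.45 more within HFD (SE 0.70, 95% interval -0.035 to 2.94, adjusted p = 0.622), followed by Nqo1 at 0.85 (adjusted p = 0.694), Ahrr at -0.60 (adjusted p = 0.675) and Arnt at -0.59 (adjusted p = 0.615). For Ahr it was 0.080 (95% interval -0.73 to 0.89, adjusted p = 0.966).

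Continuous HFD and continuous LFD tumors were compared over 9 and 5 tumors, and 0% of all genes passed, with a smallest adjusted p of 0.867 and 920 genes at an unadjusted p under 0.05. Ahr in HFD tumors of both onsets ran from 0.85 to 2.42 with a median of 1.28, and in LFD tumors from 1.77 to 2.24. The difference was -0.57 (SE 0.29, 95% interval -1.21 to 0.061, adjusted p = 0.962). Nqo1 was at -0.43, Cyp1b1 at 0.34, Arnt at 0.24, Ahrr at 0.22 and Tiparp at 0.072, with adjusted p of 0.962 to 0.990. Among late tumors of the 4 diets, 1.9% of genes passed a test for any diet difference and no member did. Ahr came closest (adjusted p = 0.0789). The 4 HFD Late tumors measured, 0.85 to 1.28, all lay below the 4 LFD Late tumors measured, 1.77 to 2.24, and 2 of 3 LFD-HFD Late tumors lay with the former. The 4 HFD Late values came from a single slide and the 4 LFD Late values from another. No slide gave Ahr values for both HFD and LFD tumors, so each Ahr contrast of these diets is also a contrast of slides. How many of all genes part these late groups in this way was not counted. Arnt had an adjusted p of 0.236, which fell to 0.0379 without LFD Late 4, and the other members had 0.179 to 0.890.

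Relations between the tested genes across tumors were computed for 15 pairs, separately in late and early tumors. In late tumors the closest was Ahr with Arnt, with Pearson's r = -0.81 (permutation p = 0.0039, adjusted 0.0586) and Spearman's rho = -0.82 (permutation p = 0.0032, adjusted 0.0486) over 11 tumors. It was -0.81 without the 2 tumors farthest from the median Ahr level and -0.81 in the 8 late tumors of the first scan session. Those 8 were 4 LFD Late tumors on 1 slide and 4 HFD Late tumors on another. There the relation cannot be told apart from a difference between these groups or slides. The permutations moved values freely between diets and slides. With the second Arnt probe, r was 0.18 over 14 late tumors, so the relation rests on which Arnt probe was read. Ahrr and Tiparp gave r = 0.53 over 15 late tumors (permutation p = 0.044, adjusted 0.180; rho = 0.31, permutation p = 0.254, adjusted 0.543), and without HFD Late 4 r was 0.17. Ahr with Cyp1b1 gave r = 0.28 over 14 late tumors (permutation p = 0.333, adjusted 0.612; rho = 0.21, permutation p = 0.462, adjusted 0.628). No pair passed an adjusted p of 0.05 by both measures in late or early tumors.

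The wider pathway was described by 4 gene lists, beside 6.73% of all genes higher and 10.8% lower in early tumors and a median difference of -0.059. Of 12 partners and co-regulators of AHR, 1 rose and none fell, with a median of 0.13. The one that rose was Arnt2, a close relative of Arnt that can also pair with AHR, at 1.82 (SE 0.29, adjusted p = 0.000488). The coactivator genes Ncoa3 at -0.37 (adjusted p = 0.0960) and Crebbp at -0.27 (adjusted p = 0.192) and the co-chaperone gene Ptges3 at 0.32 (adjusted p = 0.215) came next and did not pass. Of 15 other reported AHR targets tested, 1 rose and 2 fell, with a median of 0.059. Ugdh, which makes the sugar donor for glucuronidation, was at 0.57 (adjusted p = 0.0355), while Slc46a3, a lysosomal transporter, was at -1.30 (adjusted p = 0.000271) and the selenium-binding protein gene Selenbp1 at -1.17 (adjusted p = 0.00954). Htatip2 was at -0.55 (adjusted p = 0.0891). The list does not give the tissue or the direction in which each gene responds to AHR. Gsta1, Ido1 and Ugt1a6a were not tested.

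Enzymes that handle polycyclic hydrocarbons and their products mostly lay lower in early tumors. Of 12 such enzymes outside the battery, 5 fell and 1 rose, with a median of -0.63, against 10.8% and 6.73% of all genes. Within HFD 2 fell and none rose, with a median of -0.68. Within HFD-LFD none passed, with a median of -0.60. The list was not read under median centring, which moved the median difference of all genes from -0.059 to 0.21. The glutathione transferases split, with Gstt1 at -1.87 (adjusted p = 0.00135) and Gstm1 at -0.77 (adjusted p = 0.0212) but Gsta4 at 1.40 (adjusted p = 0.00341). Cyb5a, an electron donor to P450 enzymes, was at -1.05 (adjusted p = 0.00501) and the epoxide hydrolase Ephx2 at -1.11 (adjusted p = 0.0341). The sulfotransferase Sult1a1 was at -1.32 (SE 0.50, adjusted p = 0.0700). Chosen for their roles after their values had been seen, Ephx1, the hydrolase that works with CYP1B1 on DMBA, was at -0.051 (adjusted p = 0.818), and the P450 reductase Por at -0.48 (adjusted p = 0.228). Of 13 NRF2 targets and regulators tested, which share Nqo1 with AHR, 3 fell and 1 rose, with a median of -0.18. Osgin1 at -1.40, G6pdx at -1.29 and Srxn1 at -1.33 fell, Txnrd1 at 0.56 rose, and Nfe2l2, which encodes NRF2 and was also picked by role, was at 0.48 (adjusted p = 0.101).

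The 3 genes whose log2 ratios followed each member most closely over the arrays are given by Pearson's r as a description. The arrays share the reference, and those of 1 slide were processed together. The values pool early and late tumors. For Ahr the closest with a gene symbol were Tbc1d9 and Rasd2, both at 0.86 over 20 arrays. Ahrr was followed by Dnali1 at 0.89 over 20 arrays, Klkb1 at 0.89 over 21 and Spink1 at 0.89 over 24. For Arnt these were Nelfa at 0.83 and Wdr20 at 0.81 over 21 arrays. Beside Cyp1b1 stood Foxc1 at 0.81 over 20 arrays and Fam180a and Susd6, both at 0.81 over 17, and within late tumors these were 0.68 over 14 arrays and 0.50 and 0.60 over 11. Nqo1 was followed by Ism1 at 0.83 and Scrg1 at 0.82 over 20 arrays, and Tiparp by Enah at 0.80 over 17 and by Aadacl4fm4 at 0.80 and Gm10827 at 0.79 over 21.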

How the data were processed

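Each of 24 tumors was measured on its own Agilent 2-color array against a common reference RNA. The intensity values, in the form the authors deposited, give each spot's mean and its local background's median brightness per dye and are not dye-normalized. The deposited log10 ratios had been background-subtracted and dye-normalized by the scanner software, and served as an alternative only. The software was Agilent Feature Extraction 11.0.1.1 per the file headers, and 8.5.1.1 in the submitters' processing notes. The authors' own lowess normalization, signal filter and imputation are not in these files. Intensities were processed in R 4.3.3 with limma 3.58.1 by normexp with an offset of 50 and loess within each array, with control probes left out and spots with an outlier flag not used to fit the background and outlying spots left out. Spots in bands of 10 rows whose cyanine 5 signal was dimmed by over 0.5 log2 units were set as missing. A probe was kept if both channels exceeded 10 after background subtraction on 80% of arrays, 27271 of 39429, and the brightest stood for each gene. Missing values were not imputed.

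Early against late used 24 arrays, HFD against LFD 14, and the within-diet contrasts, their difference and the test of diet among late tumors a fit of 6 group means over 24. Differences were called at an adjusted p (Benjamini-Hochberg) under 0.05. Groups came from the sample labels. The members, gene lists, and the rule for named genes (all 8 members, the 4 genes with the smallest p and any called gene of each list, and the 3 genes most like each member) were chosen with earlier results of these data known. The steps were tested on simulated data. Precision is limited by the number of arrays, and a signal that is not well above background has only a bound. A called gene of the enzyme list is counted but not reported here by name.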

Additional observations from a re-analysis of the deposited data

Results flagged for a closer look

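Of 27 groups of 4 to 6 tumors checked for a value standing far from the rest, 3 had one, and chance gives about 1 in 20. Cyp1a1 in HFD Late 4 had a log2 ratio of 3.33, the highest of 4 HFD Late tumors and the one array on which this probe was well above background in the tumor channel. The size of this ratio is uncertain, since its reference signal of 3.99 is far below the offset of 50, and the other 3 values have only a bound. Nqo1 in HFD Early 3, at 1.86, was the highest of the 6 early tumors. Arnt in LFD Late 4, at 0.37, was the highest of 5 LFD Late tumors, and this array was on a slide of the third scan session while the other 4 shared a slide of the first.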

How the results depend on the processing

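No paired analysis was possible because each tumor had its own array and no label pairs tumors. The 6 genes in 6 comparisons kept direction and side of the threshold in 412 of 470 values under other settings and in 751 of 804 with 1 array left out. Slide as a fixed block could not be fitted within HFD or for the difference between diets. The cause of each change below was not tested.

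Genes called for early against late were 3675, and 2355 with dimmed rows kept, 7440 with array weights, 1686 and 73 with slide as a random and a fixed block, 1535 within the first scan session, and 2048 to 4517 with 1 array left out. Median centring called 5074, moved the median of all genes from -0.059 to 0.21 and the split from 1409 higher and 2266 lower to 4115 and 959. Within HFD the 2712 calls became 1520 with dimmed rows kept, 9067 with array weights, 499 with slide as a random block, and 989 to 3648 with 1 array left out. Median centring there gave 2851 higher and 347 lower, against 1198 and 1514. Within HFD-LFD the 174 calls became 55 with dimmed rows kept, 274 with median centring (258 higher and 16 lower, against 104 and 70), 2519 with array weights, 15 and 2 with slide as a random and a fixed block, 354 with session as a block, 447 without the slides with dimmed rows, and 18 to 286 with 1 array left out. For the difference between diets the 0 calls became 1 with imputation, 4 with the scanner software's ratio, 739 with array weights, and 0 to 19 with 1 array left out. HFD against LFD gave 1 with slide as a fixed block and 0 to 1 with 1 array left out. Diet among late tumors gave 398, and 99 with dimmed rows kept, 6987 with array weights, 8 and 10 with slide as a random and a fixed block, 4 with session as a block, 238 without the slides with dimmed rows, and 143 to 1056 with 1 array left out.

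Signs turned for uncalled values only. Early against late, Arnt (-0.023) was 0.013 with dimmed rows kept, 0.0079 with the scanner software's ratio, 0.37 with median centring, 0.00069 with array weights, 0.080 with session as a block, 0.076 without the dimmed slides, 0.022 and 0.17 within the first and second session, 0.015 as a mean of group means, and -0.069 to 0.020 with 1 array left out. Median centring turned Nqo1 to 0.045 and Tiparp to 0.20. Within HFD it turned Arnt to 0.24 and Tiparp to 0.20, and array weights turned Tiparp to 0.087. Within HFD-LFD, median centring turned Cyp1b1 to 0.25 and Tiparp to 0.21, the scanner software's ratio turned Ahrr to 0.15, leaving out the dimmed slides turned Ahrr to 0.028 and Cyp1b1 to 0.064, and slide as a fixed block turned Nqo1 to 0.70. With 1 array left out, Ahrr ran from -0.25 to 0.028, Cyp1b1 from -0.39 to 0.064 and Tiparp from -0.46 to 0.075. In the difference between diets, Ahr was -0.19 with imputation, -0.055 with the scanner software's ratio, -0.081 with session as a block, -0.11 without the dimmed slides, and -0.16 to 0.41 with 1 array left out. Tiparp was 0.14 with imputation, 0.19 with array weights, and -0.37 to 0.17 with 1 array left out. HFD against LFD, Tiparp was -0.094 with the scanner software's ratio, -0.077 with array weights, -0.12 and -0.66 with slide as a random and a fixed block, and -0.085 to 0.24 with 1 array left out. Slide as a fixed block turned Ahrr to -0.28 and Arnt to -0.20, and late tumors alone turned Cyp1b1 to -0.20.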
